A study of Glycine max with 6 samples.

Results

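The LEA, dehydrin and seed maturation genes of soybean (Glycine max) were taken as every soybean probe set with a gene symbol that starts PM plus a number, PGMPM, LEA, SLE plus a number, MAT or DHN. That gave 40 probe sets of the 37593 soybean probe sets on the array, and all 40 were above background on both control arrays, so all are among the 27460 tested. They carry 32 distinct symbol entries, with 37 probe sets of 1 symbol and 3 shared by several. No symbol starting DHN was found, and the symbol rule also caught MATE, a transporter family name with no link to maturation, on a probe set shared with LOC100780165. With that probe set left out, 39 remained and 7 were still called, with a median log2 difference of 0.41.

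Total RNA came from cotyledons, the storage organs of the seed, of 150 mg. There were 3 samples with 2 technical replicate arrays each, 6 in all: RNAi line 1 and RNAi line 2, which are independent transgenic lines carrying an RNA interference construct against seed storage proteins, and 1 nontransgenic control, which 1 label calls Jack. The labels do not give the construct's target, its promoter, the number of seeds pooled or a developmental stage beyond the cotyledon weight. As all samples share that weight, the order in which these genes come on during maturation was not measured.

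LEA proteins (late embryogenesis abundant) are very hydrophilic proteins that accumulate while a seed matures and dries, and are thought to protect membranes and other proteins when water is lost. They fall into groups by sequence: group 1 or Em-like proteins, dehydrins with their lysine-rich repeats, and the group 3 and group 4 proteins that fold into helices on drying. Many of these genes respond to abscisic acid, the hormone that drives seed maturation. The PM and PGMPM genes are named for clones of soybean seed maturation transcripts, which hold LEA proteins along with enzymes, chaperones and oil-body proteins.

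Values are linear intensities, called signals here. A signal also depends on the probes, so the control signal orders the probe sets but does not rank transcripts. By array, the median signal was 57.8 to 72.4 and the background limit 68.4 to 91.7. Differences are on the log2(signal + 16) scale. The deposited scaling puts the median of all tested probe sets at 0.02, and scaling to the poly-A spikes puts it at 1.48. Several other measures differed between the groups: the geometric mean signal of the poly-A spikes was 2019 to 2139 on the 4 RNAi arrays and 5871 to 6191 on the 2 control arrays, and the ratio of the 3′ to the 5′ actin probe set was 0.845 to 0.943 on RNAi arrays and 1.197 to 1.211 on control arrays. Their part in the results was not tested. Storage protein and other cotyledon transcripts were present on every array, with 14 of 14 marker probe sets detected, 4 of them called lower and 0 higher, and a summed signal of 420009 to 558544 on RNAi arrays and 734770 to 743454 on control arrays. Seed coat markers had 8 of 12 probe sets detected, with DFR2, PRP1, ANR1 and ANS2 not detected, and a summed signal of 12190 to 13641 on RNAi arrays and 22606 to 23826 on control arrays. The sum follows its bright probe sets, of PRP2, SBPRP and HPS, while by limma 3 seed coat probe sets were called higher (SCB1, with 2.10, F3H, with 1.32, and DFR1, below background in the control and at least 1.80-fold higher) and 2 lower (PRP2, with -1.51, and SBPRP, with -1.43). Of the leaf markers 5 of 9 were detected, 2 of them, both of VSPA, called higher and 0 lower. Their sums were 2625 to 3496 on RNAi arrays and 2049 to 2439 on control arrays. The dimmer of these VSPA calls was above background on 1 of 2 control arrays. It and DFR1 were tested only because the RNAi samples passed the background limit, which favours a positive difference. The 4 cotyledon probe sets called lower were of CG-BETA-1 and GY2, storage protein genes, the class the construct is directed against. In such bulk RNA, fewer cells of a type cannot be told apart from less RNA per cell or from an effect of the construct.

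Both RNAi lines were first compared with the control. Dehydrin and 6 seed maturation genes were called higher, by 2.42-fold to 4.11-fold in mean signal, and 0 members were called lower. By limma, 7 of the 40 members (17.5%) were called higher, against a background of 1.05% of all tested probe sets called higher and 1.64% called either way. Called lower were 0 of 40, against 0.594% of all tested probe sets, and at an unadjusted p below 0.05 there were 22 members (55%), against 33.1% of all. The median difference of the members was 0.41, beside 0.02 over all tested probe sets. A positive difference, called or not, stood at 28 members, beside 51.7% of all tested probe sets, and a negative one at 12, beside 48.3% of all. The number of positive differences became 35 after quantile normalization, beside 49.9% of all tested probe sets. With arrays scaled to the spikes it became 40, beside 99.3% of all.

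MAT9 / DEHYDRIN, a dehydrin probe set (RefSeq lists MAT9 as a synonym of DEHYDRIN), had the largest difference of the members. Its signal was 20855 and 20982 in RNAi line 1 and 20321 and 23468 in RNAi line 2, against 5337 and 5086 in the control. All 4 RNAi arrays thus lay well above both control arrays, with a mean of 21407 ± 690 in the lines (SD, n = 2 lines) and 5212 in the control. The log2 difference was 2.03 (SE 0.10, limma adjusted p = 0.0488).

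PM22, a seed maturation gene, had a signal of 2873 and 2676 in RNAi line 1 and 2902 and 2733 in RNAi line 2, against 908 and 724 in the control. This was a 3.43-fold rise in mean signal (log2 difference 1.76, SE 0.10, limma adjusted p = 0.0488). PM29, another seed maturation gene, had 7225 and 7016 in RNAi line 1 and 7199 and 6590 in RNAi line 2, against 2308 and 2071 in the control. It rose 3.20-fold, with a log2 difference of 1.67. Neither gene had any overlap between RNAi and control arrays.

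PGMPM18 was the dimmest of the called members. Its signal was 568 and 577 in RNAi line 1 and 634 and 445 in RNAi line 2, against 157 and 200 in the control (log2 difference 1.55, SE 0.11). The second array of RNAi line 2 was its lowest RNAi array and still above both control arrays. PM35 had 7403 and 7220 in RNAi line 1 and 7515 and 7586 in RNAi line 2, against 2824 and 2500 in the control, a 2.79-fold rise (log2 difference 1.48).

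PM3 and PM13 each had a called probe set and another that was not called. The called PM3 probe set gave 5737 and 5535 in RNAi line 1 and 5511 and 5578 in RNAi line 2, against 2064 on each control array (log2 difference 1.43). Its other probe set gave 3316, 3459, 3210 and 3328 on the RNAi arrays, against 1715 and 1683 in the control (log2 difference 0.96, adjusted p = 0.0526 by limma). Both PM3 probe sets thus pointed the same way by different amounts.

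PM13 encodes a calcium-binding protein of the caleosin family, which sits on oil bodies. Its brighter probe set gave 2437 and 2665 in RNAi line 1 and 2681 and 2508 in RNAi line 2, against 1092 and 1037 in the control (log2 difference 1.26, limma adjusted p = 0.0491). Its dimmer one, close to background in the control, gave 238 and 170 in RNAi line 1 and 167 and 146 in RNAi line 2, against 86.4 and 83.5 in the control. That difference of 0.94 was not called (limma adjusted p = 0.0803), although the arrays did not overlap.

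With 1 residual degree of freedom, the 7 members called had limma adjusted p-values of 0.0488 to 0.0491, just under the threshold. That degree of freedom holds the difference between the lines, and variation between control samples was not measured. The number of members called was 0 with robust moderation, with a pseudocount of 1, with no filter and under both quantile normalization and median centring, and 15 to 22 with a stricter filter, a pseudocount of 64 or an intensity trend. Of all tested probe sets, 0 were called in the former settings and 12.9% to 31% in the latter. The number of members called was also 0 without any 1 of the 4 RNAi arrays. It was 12 without control replicate 1, beside 4.48% of all, and 13 without control replicate 2, beside 6.86%.

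**Figure D1:**
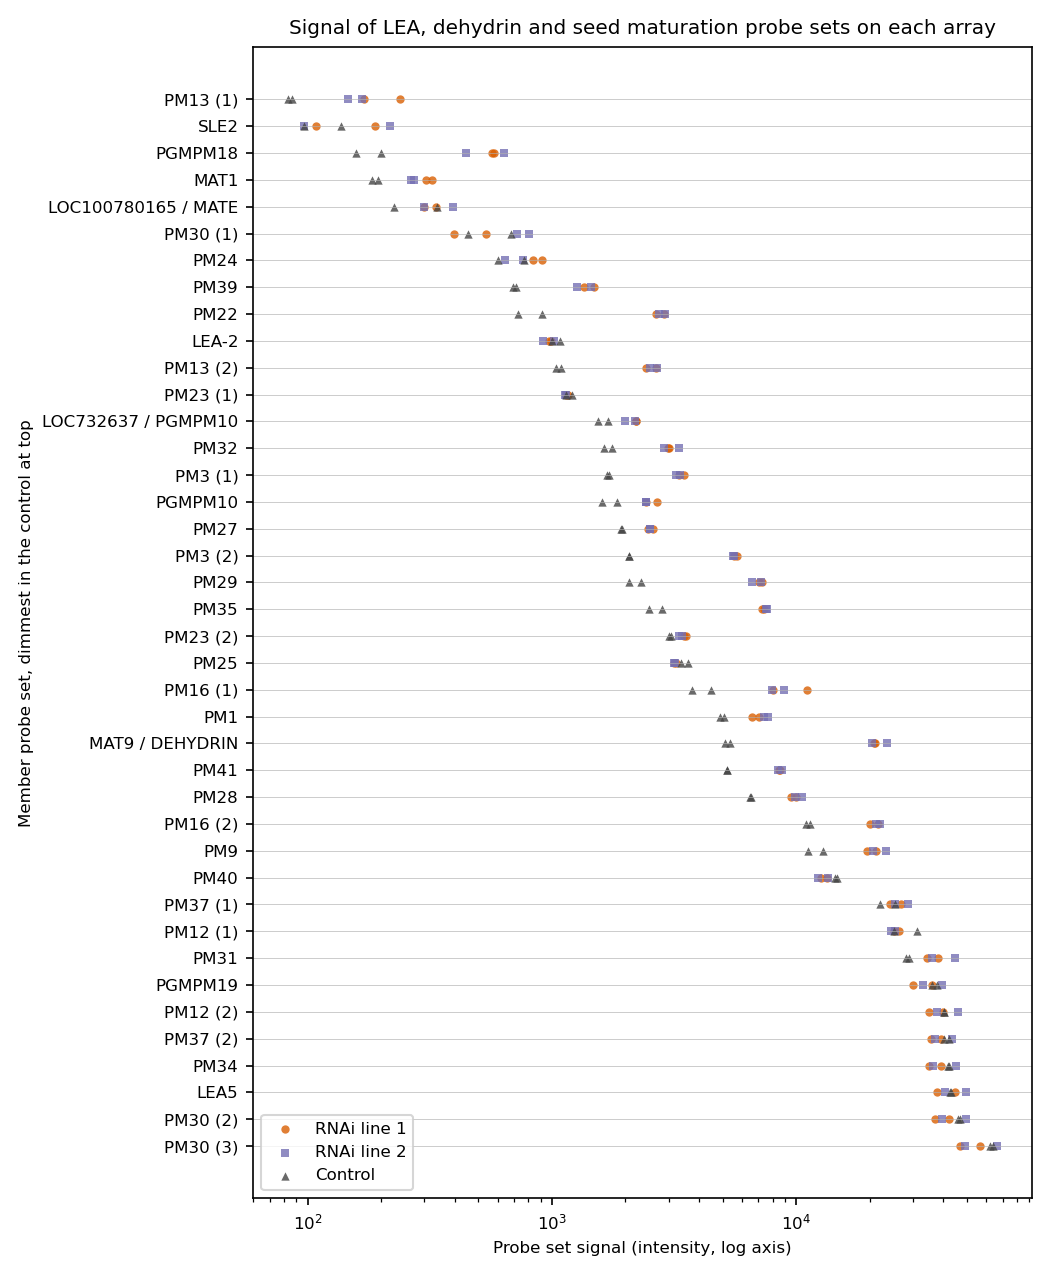
Signal of each of the 40 member probe sets (rows, dimmest in the control at the top) on each array, on a log axis; circles are RNAi line 1, squares RNAi line 2 and triangles the control, with 2 technical arrays each. The RNAi points stand to the right of both control points in 23 rows, MAT9 / DEHYDRIN by the most, and mix with them in the bottom rows.

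Beyond the calls, the arrays of both lines separated from the control for many members. All 4 RNAi arrays lay above both control arrays for 23 of 40 members (57.5%), against 25.9% of all tested probe sets. They lay below both for 2 of 40 (5%), PM25 and PM40, against 23.6% of all. Of the 23, 16 were not called, with differences from 0.17 to 1.12. Technical arrays of 1 sample are not independent, so this separation compares 3 samples.

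Among these 16, group 4 LEA proteins formed a set of 3 genes, PM1, PM9 and PM28. PM9 had 21239 and 19466 in RNAi line 1 and 20510 and 23278 in RNAi line 2, against 11123 and 12869 in the control (log2 difference 0.82, limma adjusted p = 0.0604). PM28 had 9495 and 9986 in RNAi line 1 and 9867 and 10536 in RNAi line 2, against 6436 and 6525 in the control (0.62, limma adjusted p = 0.0686). PM1 had 7035 and 6581 in RNAi line 1 and 7396 and 7663 in RNAi line 2, against 4871 and 5070 in the control (0.52, limma adjusted p = 0.0935). All 3 stood higher on every RNAi array, and 0 of 3 was called.

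The 2 group 3 LEA genes gave differences of opposite sign at their brightest probe sets. PM16 had 21572 and 20003 in RNAi line 1 and 22035 and 21258 in RNAi line 2, against 11401 and 10994 in the control (0.92, limma adjusted p = 0.0535). Its other probe set gave 11101 and 8038 in RNAi line 1 and 8931 and 7950 in RNAi line 2, against 4475 and 3726 in the control, the largest uncalled difference of any member at 1.12. PM30 had 56712 and 46630 in RNAi line 1 and 49229 and 66010 in RNAi line 2, against 63921 and 62310 in the control (-0.22, limma adjusted p = 0.289), and its groups overlapped. At its other probe sets PM30 gave -0.15, with 36944 to 49407 on RNAi arrays and 45878 and 46630 in the control, and 0.10 at a far dimmer one, with 397 to 808 on RNAi arrays and 679 and 453 in the control. The difference between PM16 and PM30 was not tested, and the brightest PM30 probe set turned to 0.05 after quantile normalization and 1.31 with spike scaling.

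The other dehydrin, MAT1, which has dehydrin among its RefSeq synonyms, was dim. It had 325 and 305 in RNAi line 1 and 266 and 273 in RNAi line 2, against 194 and 184 in the control (0.58, limma adjusted p = 0.0987). It pointed the same way as MAT9 / DEHYDRIN, with a difference under a log2 unit, and the arrays did not overlap. SLE2, the Em-like group 1 gene also known as GmPM11, had 108 and 189 in RNAi line 1 and 96.3 and 217 in RNAi line 2, against 97.0 and 137 in the control. Its technical arrays spread as widely as its samples, and the difference of 0.29 was not called (limma adjusted p = 0.157).

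PM39 had 1348 and 1489 in RNAi line 1 and 1442 and 1264 in RNAi line 2, against 690 and 710 in the control (0.97, limma adjusted p = 0.0527). This was a 1.98-fold higher mean signal without overlap. PM32, with 0.84, PM41, with 0.71, and PGMPM10, with 0.53, also stood higher on every RNAi array and were not called. So did PM27, with 0.39, and the probe set shared by LOC732637 and PGMPM10, with 0.41. PM31, a protein of the small heat shock class of chaperones, had 37940 and 34196 in RNAi line 1 and 36074 and 44400 in RNAi line 2, against 28182 and 29045 in the control (0.41, limma adjusted p = 0.130).

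The members with negative differences had small ones, from -0.22 to -0.0006, and 0 of these 12 probe sets was called. PM40 had 13339 and 12632 in RNAi line 1 and 12280 and 13481 in RNAi line 2, against 14414 and 14710 in the control (-0.17, limma adjusted p = 0.306). PM25 had 3152 and 3216 in RNAi line 1 and 3174 and 3154 in RNAi line 2, against 3377 and 3598 in the control (-0.13, limma adjusted p = 0.400). Both lay below the control on every array, and both turned positive with spike scaling. PM12 gave -0.14, with 24380 to 26333 on RNAi arrays and 25037 and 31063 in the control, and -0.03 at its brighter probe set. LEA-2 had -0.09, with 917 to 1017 on RNAi arrays and 1075 and 1005 in the control, and its groups overlapped. The sign at PM12's brighter probe set also turned after quantile normalization.

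PM23 and PM37, like PM30, had probe sets that differed in sign. PM23 gave 3535, 3481, 3407 and 3324 on the RNAi arrays, against 3072 and 3022 in the control (0.17), and at its dimmer probe set 1143, 1169, 1139 and 1134, against 1213 and 1138 (-0.03). PM37 gave -0.09 at its brighter probe set and 0.15 at its dimmer one, with 26772, 24170, 25414 and 28687 on the RNAi arrays, against 21978 and 25431 in the control. None of these 4 differences was called, and the 4 other genes with several probe sets, PM3, PM12, PM13 and PM16, kept 1 sign across theirs.

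Grouped by mean signal in the control, the members had positive median differences below a signal of 30000 and a median just under 0 above it. Of 5 probe sets under 500, 1 was called higher (PGMPM18) and 5 had positive differences, with a median of 0.58. Of the 13075 tested probe sets of that signal, 208 were called higher and 36 lower, 1.87% either way. Their differences were positive for 58.3% and had a median of 0.09. Of 19 from 500 to 5000, 5 were called higher (PM22, PM13, PM3, PM29 and PM35) and 16 had positive differences, with a median of 0.53. Of the 12242 tested probe sets there, 75 were called higher and 85 lower, 1.31% either way. Their differences were positive for 47.4% and had a median of -0.02. Of 16 at 5000 or more, 1 was called higher (MAT9 / DEHYDRIN) and 7 (43.8%) had positive differences, with a median of -0.02. Of the 2143 tested probe sets there, 5 were called higher and 42 lower, 2.19% either way. Their differences were positive for 35.8% and had a median of -0.09. Within that last group, the 9 members between 5000 and 30000 had a median of 0.62, beside -0.08 over all 1938 tested probe sets there.

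Among the 205 tested probe sets with control signals of at least 30000, 190 had negative differences. The 7 members of such signal all had negative differences too. They belong to PGMPM19, PM12, PM37, PM34, LEA5 and PM30, and had differences from -0.22 to -0.0006 with a median of -0.09. All 7 had RNAi arrays that overlapped the control arrays, as did 142 of the 205 in all. LEA5, a gene of LEA protein, had 44546 and 37642 in RNAi line 1 and 40420 and 49268 in RNAi line 2, against 42488 and 43042 in the control (limma adjusted p = 0.998). PM34, an enzyme of the short-chain dehydrogenase class, had 39257 and 34915 in RNAi line 1 and 36251 and 44834 in RNAi line 2, against 42324 and 41896 in the control (-0.12). For LEA5, each line had 1 technical array above and 1 below the control arrays, which lay close together. For PM34 this held in RNAi line 2, and both arrays of RNAi line 1 were lower than the control.

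The brighter PM37 probe set had 39202 and 35743 in RNAi line 1 and 36868 and 43424 in RNAi line 2, against 40307 and 42245 in the control. PGMPM19, which has the RefSeq synonym GMMT4, had 35901 and 30131 in RNAi line 1 and 32973 and 39374 in RNAi line 2, against 35774 and 37787 in the control. The brighter PM12 probe set had 39801 and 34961 in RNAi line 1 and 37488 and 45838 in RNAi line 2, against 40305 and 40263 in the control. In each, the RNAi arrays overlapped the control arrays. All 205 tested probe sets of such signal had a median of -0.20 with a median absolute deviation of 0.07, against 0.26 over all tested probe sets, so differences spread least at the top of the scale. After quantile normalization the brightest probe sets of all 6 genes turned positive, by 0.05 to 0.22.

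**Figure D2:**
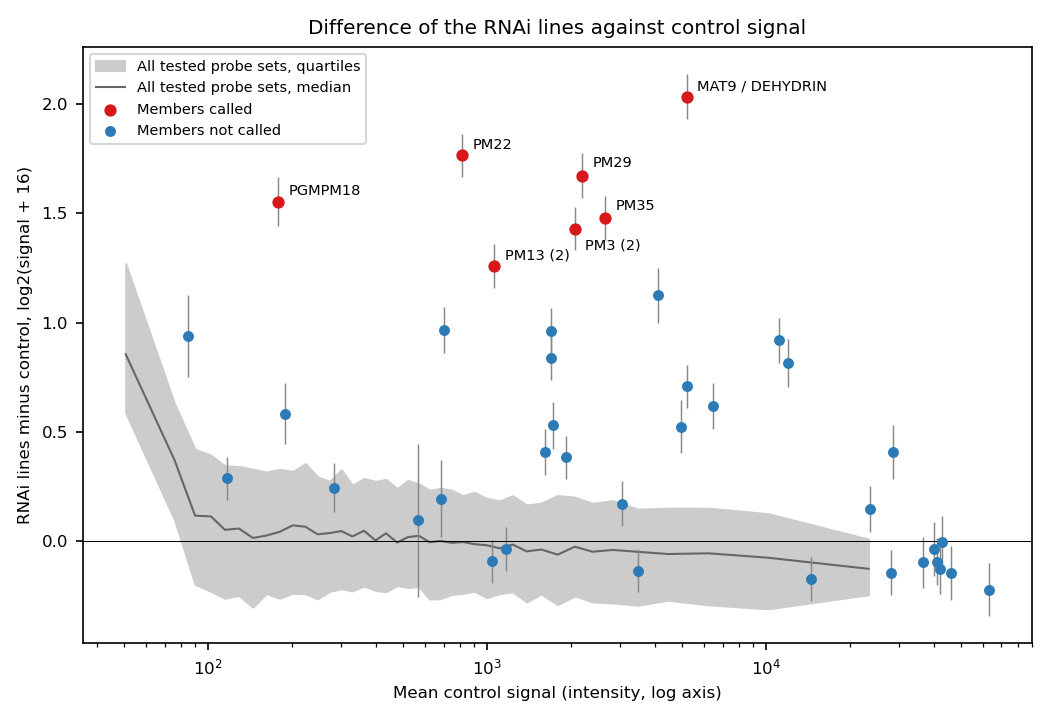
Mean difference of both RNAi lines from the control, in log2(signal + 16), against mean control signal on a log axis; dots are the 40 members with their SE, red where called, and the grey band and line are the quartiles and median of all 27460 tested probe sets in 40 bins of signal, drawn up to the middle of the brightest bin. The 7 called members lie between control signals of 179 and 5212, and the 7 members above 30000 lie just under 0.

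Over the 40 members, the difference and the log2 control signal had a Pearson correlation of -0.41 and a Spearman correlation of -0.47. Over all 27460 tested probe sets the Spearman correlation was -0.20. The points share arrays, and the control value enters both axes, so these correlations are descriptions only.

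The second comparison took each line on its own against the control, on 6 arrays with a spread that is technical only. In RNAi line 1, 21 of 40 members (52.5%) were called higher by limma, against a background of 7.97% of all tested probe sets, and 0 were called lower, against 6.32%. In RNAi line 2, 20 of 40 (50%) were called higher, against 8.48%, and 0 lower, against 6.91%. Both comparisons share the control arrays. The 20 members called in RNAi line 2 were also called in RNAi line 1, and the remaining one, the probe set shared by LOC732637 and PGMPM10, had 0.45 in RNAi line 1 (limma adjusted p = 0.0482) and 0.37 in RNAi line 2 (limma adjusted p = 0.0726). Without 1 of the arrays involved these counts fell to between 6 and 10, and the share over all tested probe sets was not counted.

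The sizes in each line stood side by side as follows. MAT9 / DEHYDRIN rose by 2.00 in RNAi line 1 and 2.06 in RNAi line 2 (SE 0.11 each). PM22 rose by 1.75 in RNAi line 1 and 1.78 in RNAi line 2, and PM29 by 1.70 in RNAi line 1 and 1.65 in RNAi line 2. PGMPM18, the dimmest of the 7 members called over both lines, rose by 1.61 in RNAi line 1 and 1.50 in RNAi line 2 (SE 0.20 each).

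The group 4 genes, which had missed the threshold over both lines, were called in each line: PM9 with 0.76 in RNAi line 1 and 0.87 in RNAi line 2, PM28 with 0.59 in RNAi line 1 and 0.65 in RNAi line 2, and PM1 with 0.45 in RNAi line 1 and 0.60 in RNAi line 2. MAT1 was called too, with 0.69 in RNAi line 1 and 0.48 in RNAi line 2. In all, 13 members were called in both lines on this technical spread and not over both lines against the control. Over all 27460 tested probe sets the calls also differed, with 3924 in RNAi line 1, 4226 in RNAi line 2 and 451 over both lines.

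**Figure D3:**
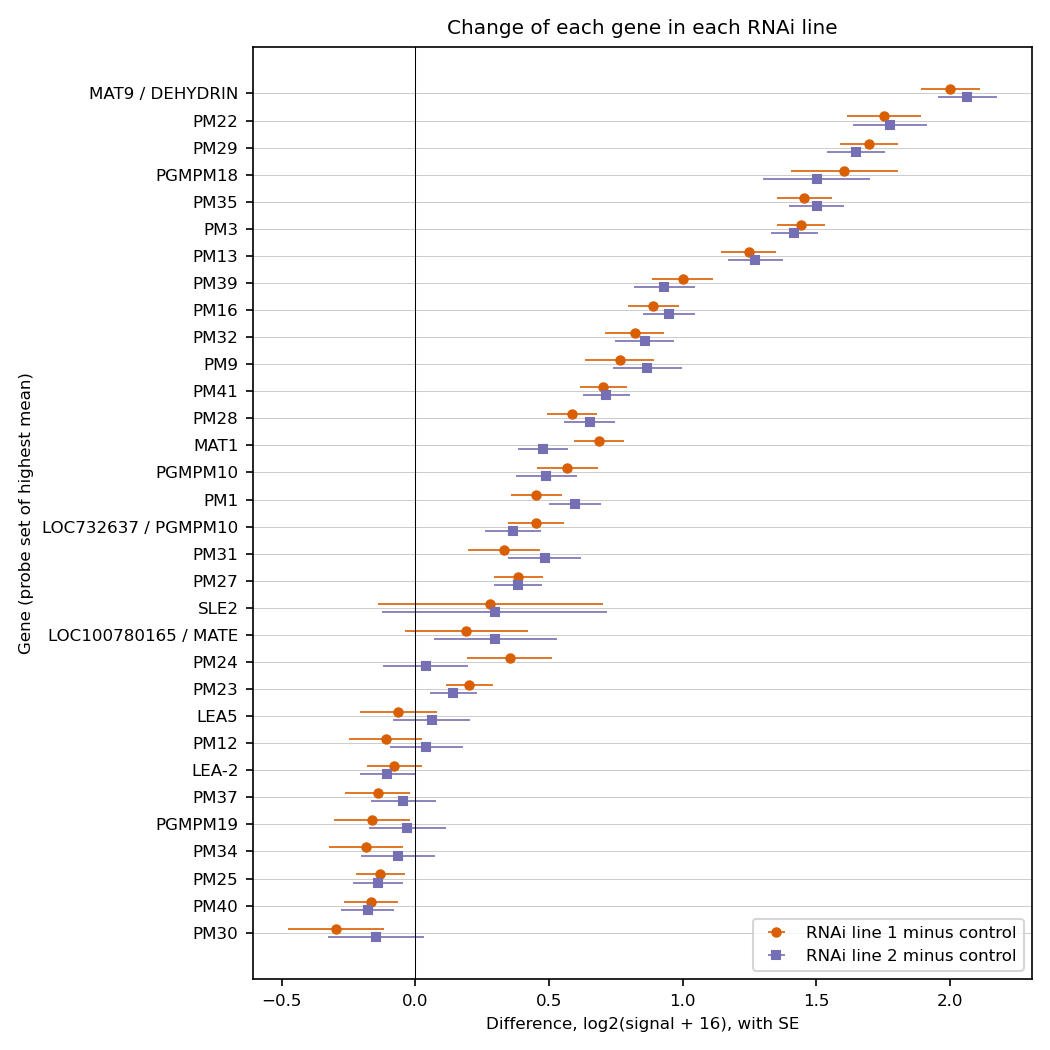
Difference of RNAi line 1 (circles) and RNAi line 2 (squares) from the control for the brightest probe set of each of the 32 symbol entries, in log2(signal + 16), with the SE of the 6-array fit, sorted by the mean over both lines. The lines lie close together in most rows, from MAT9 / DEHYDRIN at the top, with 2.00 and 2.06, to PM30 at the bottom, with -0.30 and -0.15.

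The lines were then set against each other, which does not involve the control. Of 27460 tested probe sets limma called 0, members included, a background of 0%, with 5.82% of all and 1 of 40 members at an unadjusted p below 0.05. The median absolute difference between the lines over the members was 0.07, and the smallest adjusted p was 0.818. That was the dim PM30 probe set, with 535 and 397 in RNAi line 1 and 808 and 723 in RNAi line 2, a difference of -0.71 (SE 0.24). PM24 had 908 and 839 in RNAi line 1 and 759 and 644 in RNAi line 2, against 768 and 602 in the control, so that RNAi line 1 alone lay above the control on both arrays. The largest positive difference between lines, 0.34 (SE 0.17), was at the dim PM13 probe set. Such tests do not show that the lines were alike, since only technical spread and 2 arrays a line enter them.

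Other genes of seed maturation were taken by symbol, outside the rule for members. Genes linked to drying had 14 probe sets, 10 of them detected, of which 5 were called higher and 0 lower. Over all tested probe sets, 1.05% were called higher and 0.594% lower. Of the 10, GOLS, HSP17.5-E and a probe set shared by GSTU24 and HSP26-A were not above background on both control arrays and were tested only because the RNAi samples passed the filter, which favours a positive difference. The 5 called were above background on both control arrays. SBP65, a biotin-containing seed protein, had 5766 and 6065 in RNAi line 1 and 5805 and 6077 in RNAi line 2, against 1727 and 1877 in the control (1.71, limma adjusted p = 0.0488). HSP23.9, a small heat shock protein, rose at 3 probe sets by 2.21, 1.99 and 1.72, and ELIP, an early light-induced protein, rose by 1.19.

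The other 5 detected probe sets of that list were not called. GOLS, a galactinol synthase of raffinose sugar synthesis, was below background on both control arrays and at least 1.57-fold higher (limma adjusted p = 0.0547). GSTU24 and HSP26-A, names of a glutathione transferase, share a probe set with 0.43 that was above background on both control arrays, and the one with 0.95 that was above it on 1 of 2. HSP17.5-E, also above background on 1 of 2 control arrays, had 0.60, and HSP22.3, above it on both, had 0.13.

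Regulators taken by symbol had 8 probe sets, all detected, and 0 were called in either direction, beside 1.64% of all tested probe sets. With so few probe sets and so low a share, this count does not show that the regulators were unchanged. LEC1-A, a transcription factor subunit that promotes embryo maturation in Arabidopsis, had 3728 and 3629 in RNAi line 1 and 3759 and 3856 in RNAi line 2, against 5665 and 6322 in the control (-0.67, limma adjusted p = 0.0646). Its RNAi arrays all lay below the control. The protein kinase gene SPK-1 had 226 and 203 in RNAi line 1 and 340 and 270 in RNAi line 2, against 99.3 and 156 in the control (0.94, limma adjusted p = 0.108), and SPK-2, above background on 1 of 2 control arrays, had 0.39. The symbol rule also took FUSA1 and FUSA2, elongation factor genes of plastids that are no maturation regulators, with -0.55 and -0.29 at 2 shared probe sets.

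**Figure D4:**
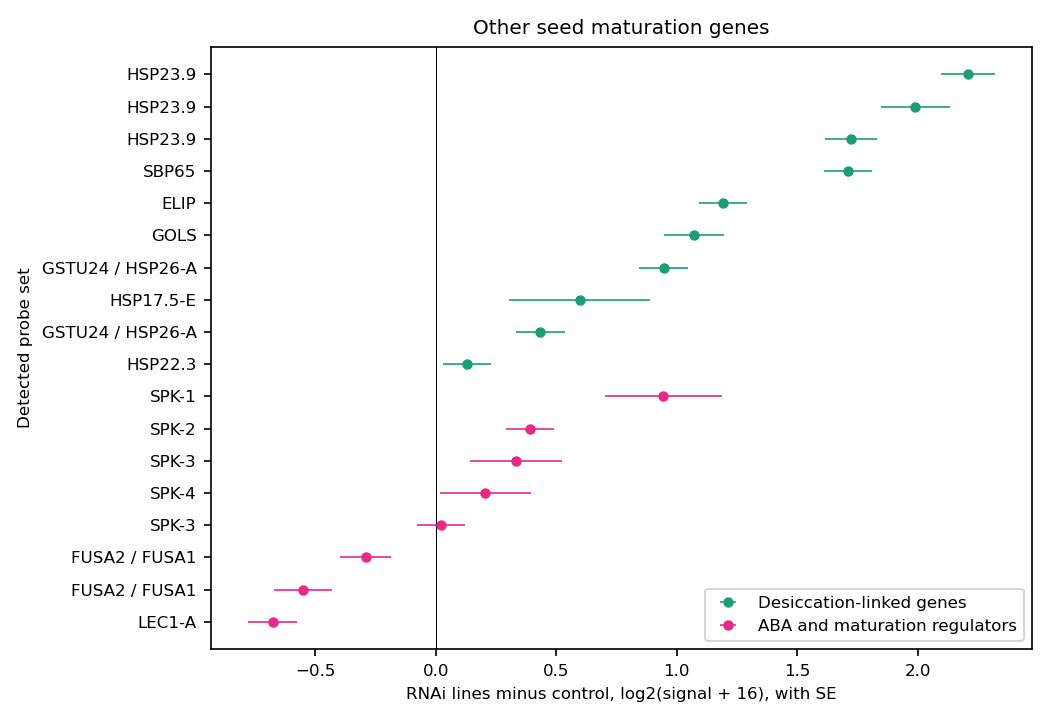
Mean difference of both RNAi lines from the control, in log2(signal + 16) with SE. Shown are the 10 detected probe sets taken by symbol as linked to drying (green) and the 8 taken by symbol as regulators (pink). The pink ones include those shared by FUSA1 and FUSA2, which are no maturation regulators. The drying-linked probe sets run from 0.13 for HSP22.3 to 2.21 for HSP23.9, with GOLS, HSP17.5-E and the GSTU24 / HSP26-A probe set at 0.95 not above background on both control arrays, while the regulators run from -0.67 for LEC1-A to 0.94 for SPK-1.

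Of the 34 gene records behind the members, 33 were found in RefSeq's table for assembly Glycine_max_v4.0. No member was the next protein-coding gene to another, as the closest pair on a chromosome stood 78 gene positions apart, so the called genes do not neighbour each other in that assembly.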

How the data were processed

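Total RNA was labelled with a one-cycle kit for an Affymetrix array, per the labels. Each value is a linear intensity as deposited, and the authors had brought every array to a trimmed mean of 499.91 (found from the values); the software is not given in the sources used here. Gene names came from the platform annotation. Probe sets above the 95th percentile of other organisms' probe sets on both arrays of a sample were tested (27460, with 10133 left out).

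Fits used limma 3.58.1 in R 4.3.3 on log2(signal + 16), with Benjamini-Hochberg adjustment over all tested probe sets and a threshold of 0.05. RNAi lines against control used 3 sample means (1 residual degree of freedom, prior 2.36); single lines used 6 arrays (3 residual, prior 2.35), whose spread is technical. In the fit of 3 sample means the residual is the difference between the lines alone. The control is 1 sample, so variation between control samples was not measured. The number of samples limits precision. The scripts were tested on simulated data.

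Members, gene lists and alternatives were chosen with earlier results of these data known. Array values are given for called members, the 6 brightest genes, the 4 largest uncalled differences each way and genes whose probe sets differ in sign, with values of other members added. The alternatives were other scalings, filters, pseudocounts, moderation, arrays left out and array-level fits. Protein and promoter sequences were not used here.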

Additional observations from a re-analysis of the deposited data

How the results depend on the processing

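The call count of both RNAi lines against the control rests on adjusted p-values just under the threshold. Of all tested probe sets 451 were called, with 0 under quantile normalization, under median centring, without a filter, at a pseudocount of 1 and with robust moderation. Members called by limma were then also 0, while 22, 22, 19, 23 and 22 of them had an unadjusted p below 0.05. Over all tested probe sets that count was 8883, 9084, 8115, 8749 and 8954, of 37593 without a filter and of 27460 otherwise. The count over all and over members was 3323 and 15 with the 99th percentile of background, 3547 and 16 at a pseudocount of 64, 8517 and 22 where moderation followed an intensity trend, 6733 and 21 with arrays as replicates, and 10196 and 22 with the sample as a random block. With the replicate block on 6 arrays it was 4485 and 19. Same-numbered arrays did not deviate together over all tested probe sets (correlations of 0.017, 0.015 and -0.008). These correlations showed no pairing by number, and a shared batch of another kind was not tested. With spike scaling the count over all and over members was 26420 and 40. Leaving out 1 array gave 0 to 1884 over all and 0 to 13 members. For single lines, members called were 40 in each with spike scaling, and 11 in RNAi line 1 and 12 in RNAi line 2 without the filter. They were 6 to 17 in RNAi line 1 and 7 to 17 in RNAi line 2 when an array was left out. Shares over all tested probe sets were not counted for these single-line alternatives. Over both lines, spike scaling called 96.2% of all tested probe sets. The median difference of members was 0.48 after quantile normalization, 1.93 with spike scaling, 0.47 with 1 probe set per gene and 0.38 to 0.52 without 1 array; relative to all tested probe sets it was 0.46 with spike scaling.

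Signs turned after quantile normalization for PM30 (0.048), LEA5 (0.22), PM34 (0.07), PM12 (0.15), PM37 (0.087) and PGMPM19 (0.075). With spike scaling PM30 (1.31), LEA5 (1.53), PM34 (1.41), PM12 (1.50), PM37 (1.44), PGMPM19 (1.44), PM40 (1.36), PM25 (1.39) and LEA-2 (1.41) turned, following the offset of 1.48. Leaving out 1 array turned LEA5 (-0.072 to 0.071), PM12 (-0.11 to 0.038) and the MATE probe set (-0.033 to 0.53). The cause was not tested. The 7 called genes kept their sign, with log2 differences of at least 1.22, under each alternative run.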
